A study of Homo sapiens with 8 samples.

Results

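The p53 peaks at the MDM2 locus were examined in 293T, a line of human embryonic kidney origin that expresses the simian virus large T antigen, which itself binds p53. The members were all peaks that shared at least 1 base with a 60 kb window of build hg19 on chromosome 12, which ran from about 12 kb before to 48 kb after the first MDM2 transcript start. This gave 22 peaks of 97582 in the deposited lists, and the 22 peaks merged into 13 sites of 63890. The members were chosen by position alone, but earlier results of these data were known when that choice was made. Cells had received doxorubicin at 0.5 µg/ml for 24 h (Dox), or PBS as the vehicle for the same 24 h (PBS), and all chromatin was precipitated with the same lot of a p53 antibody. There were 2 ChIP libraries per condition, and replicate 1 came from passage 3 and replicate 2 from passage 5 in both. Nothing in the labels says that the 2 libraries of a condition were separate cultures beyond their passage. Spreads between them may thus mix passage and technical differences. The 4 input samples were not analysed here.

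MDM2 is an E3 ubiquitin ligase that binds p53, blocks its transactivation domain and marks it for degradation, and MDM2 is itself a p53 target gene, so the pair forms a negative feedback loop. The gene has a constitutive promoter, P1, before its first exon, and an internal promoter, P2, in intron 1, and p53 is known to act through response elements just before the P2 start. Doxorubicin poisons topoisomerase II, and the DNA breaks that follow stabilise p53. A consensus p53 site has a pair of half-sites of 10 bases each, one for each p53 dimer of the tetramer.

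Sequence of both promoters is shown because the strongest peak of the locus lay at one of them and weak peaks lay at the other. RefSeq sequence was at hand for build GRCh38 only, and 4 MDM2 promoter windows matched by symbol, 2 at P1 and 2 at P2. The 250 bases before the first start of each promoter are given 5′ to 3′ on the plus strand, P1 from chr12:68807922-68808171 and P2 from chr12:68808767-68809016. Capitals mark matches to the p53 consensus site of 20 letters with no spacer and at most 3 mismatches.
P1: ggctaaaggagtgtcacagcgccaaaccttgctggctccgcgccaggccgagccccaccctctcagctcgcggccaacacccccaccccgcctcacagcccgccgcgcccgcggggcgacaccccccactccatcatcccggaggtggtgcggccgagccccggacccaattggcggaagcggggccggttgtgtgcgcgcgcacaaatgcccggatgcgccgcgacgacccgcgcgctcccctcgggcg
P2: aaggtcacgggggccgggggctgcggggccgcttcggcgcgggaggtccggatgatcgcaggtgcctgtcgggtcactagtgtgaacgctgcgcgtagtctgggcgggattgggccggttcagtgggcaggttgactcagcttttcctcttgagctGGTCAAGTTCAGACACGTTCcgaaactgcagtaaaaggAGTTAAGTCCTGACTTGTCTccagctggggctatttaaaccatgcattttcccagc

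The P2 window held 2 matches and the P1 window held 0, where the best 20 letters had 5 mismatches. The consensus reads the same on both strands, so each match counts once. The match farther from the P2 start had 2 mismatches, 1 in each half-site, and lay 94 to 75 bases before that start. The nearer match had 3 mismatches, 2 in its first and 1 in its second half-site, and lay 56 to 37 bases before the start; the matches did not overlap. Of 35116 RefSeq promoter windows of the same length, 4.36% held at least 1 match with at most 3 mismatches, 0.561% held one with at most 2, and 0.231% held 2 or more with at most 3, matches that overlap included. With a spacer of up to 13 bases between the half-sites allowed, 34.1% of windows held a match with at most 3 mismatches, and the P1 window still held none, with 4 mismatches at best. A match is a stretch of letters and does not by itself show binding.

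The peak with the smallest p in the window lay over the P2 region in each of the 4 libraries. It was from 69201674 to 69202994 in Dox replicate 1 and from 69202518 to 69203004 in Dox replicate 2. In PBS it was from 69202576 to 69202888 in replicate 1 and from 69202510 to 69203009 in replicate 2. The stretch common to all 4 peaks was that of PBS replicate 1, 313 bases from 69202576 to 69202888, and all 4 summits lay inside it. Summits were listed at 69202734 and 69202811 in Dox replicates 1 and 2, and at 69202720 and 69202729 in PBS replicates 1 and 2. They thus spanned 91 bases, and without that of Dox replicate 2 they spanned 14 bases. Of the 206 sites of the genome with a peak of −log10 q of at least 1.3 in all 4 libraries, the median span of the 4 leading summits was 49.0 bases (quartiles 27.0 and 108.0), and 71.8% had a smaller span than the MDM2 site.

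Measured from the first MDM2 start on hg19, which is known here only approximately, the summits lay 763 and 840 bases downstream in Dox replicates 1 and 2 and 749 and 758 bases downstream in PBS replicates 1 and 2. Measured from the first RefSeq start on GRCh38, the consensus matches lay 751 to 770 and 789 to 808 bases downstream, and the P2 starts 845 and 852 bases downstream. The 2 scales start at each build's own first start, and no coordinate was carried from one build to the other. The summits, at 749 to 840 bases, and the matches, at 751 to 808 bases, thus fell in a similar range of distances. Because the hg19 start is approximate, the 2 scales may be shifted against each other by an unknown number of bases. It therefore cannot be said which summits lay inside a match, or on which side of the P2 starts they lay.

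**Figure D1:**
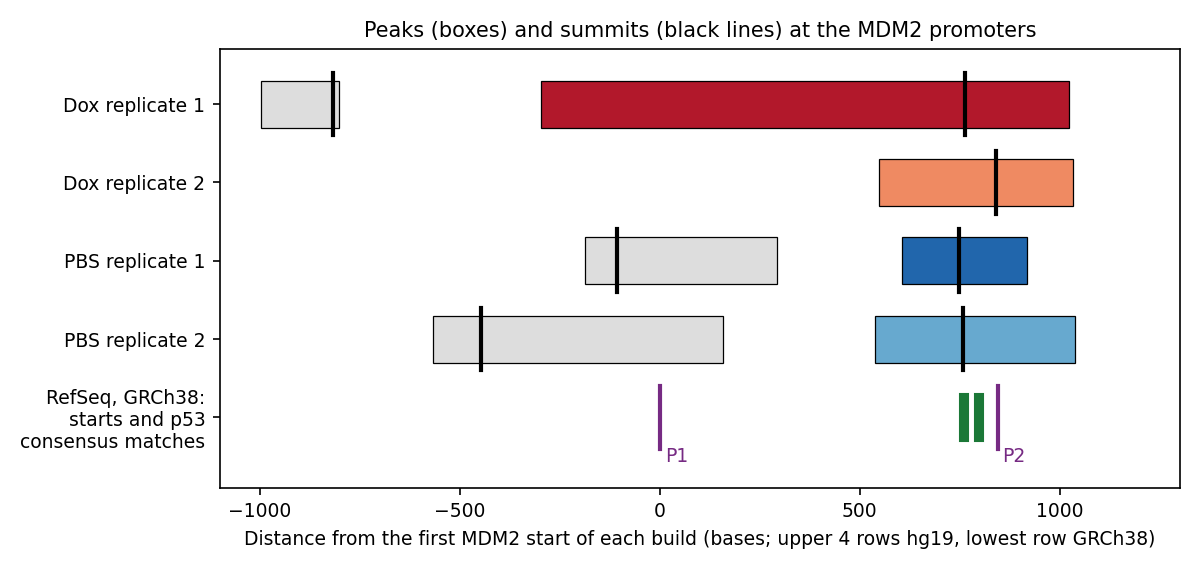
Peaks around the MDM2 promoters, by distance in bases from the first MDM2 start (upper rows, hg19; lowest row, GRCh38 RefSeq). Boxes are peaks, coloured where −log10 q was at least 1.3, black lines are summits, green boxes are matches to the p53 consensus and purple lines the P1 and P2 starts. The 4 coloured peaks share the stretch from 605 to 917 bases, and the grey peaks over the P1 start are those of PBS replicates 1 and 2. The hg19 start is approximate and the builds were not aligned, so the lowest row may be shifted against the upper rows.

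Within each list the P2 peak stood near the top. Each list gives a fold enrichment of the summit over the local background, on a scale set by that library and its control, so these values describe a peak within its own list. The P2 peak had an enrichment of 11.44-fold with a −log10 q of 16.08 in Dox replicate 1 and of 8.78-fold with a −log10 q of 10.84 in Dox replicate 2. In PBS the enrichment was 6.44-fold with a −log10 q of 4.68 in replicate 1 and 9.31-fold with a −log10 q of 11.81 in replicate 2. The median fold of a list was 2.47 for Dox replicate 1, 2.78 for Dox replicate 2, 2.64 for PBS replicate 1 and 2.85 for PBS replicate 2, so the P2 peak was above its list's median in every library.

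By p, the P2 peak ranked 69 of 46658 peaks (the top 0.148%) in Dox replicate 1 and 92 of 16642 (0.553%) in Dox replicate 2. It ranked 108 of 11304 (0.955%) in PBS replicate 1 and 117 of 22978 (0.509%) in PBS replicate 2. Among the peaks of chromosome 12 alone it ranked 3 of 1992 and 4 of 719 in Dox replicates 1 and 2, and 7 of 498 and 5 of 995 in PBS replicates 1 and 2. The peak was in the top 1% of all 4 lists. Ranks from lists of unequal length cannot show whether the P2 peak changed between conditions, and the ranks were not tested. With the 206 sites that had −log10 q of at least 1.3 in all libraries ordered by the percentage rank in their lowest-placed library, it stood at position 70.

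It was also the only peak of the window with a −log10 q of at least 1.3, in each of the 4 libraries. Over whole lists, 3.66% of Dox replicate 1 peaks, 4.84% of Dox replicate 2 peaks, 2.56% of PBS replicate 1 peaks and 5.98% of PBS replicate 2 peaks had such a q. Cutting the genome into stretches of 60000 bases on the grid of the MDM2 window, 0.869% of the 20594 stretches with any peak held such a peak in every list. On chromosome 12 the nearest other peak of that q lay 3.17 Mb before the P2 peak in every library, with summits between 66033561 and 66033600. After it, the nearest lay 19.8 Mb and 42.2 Mb away in Dox replicates 1 and 2, and 29.8 Mb and 23.3 Mb away in PBS replicates 1 and 2.

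**Figure D2:**
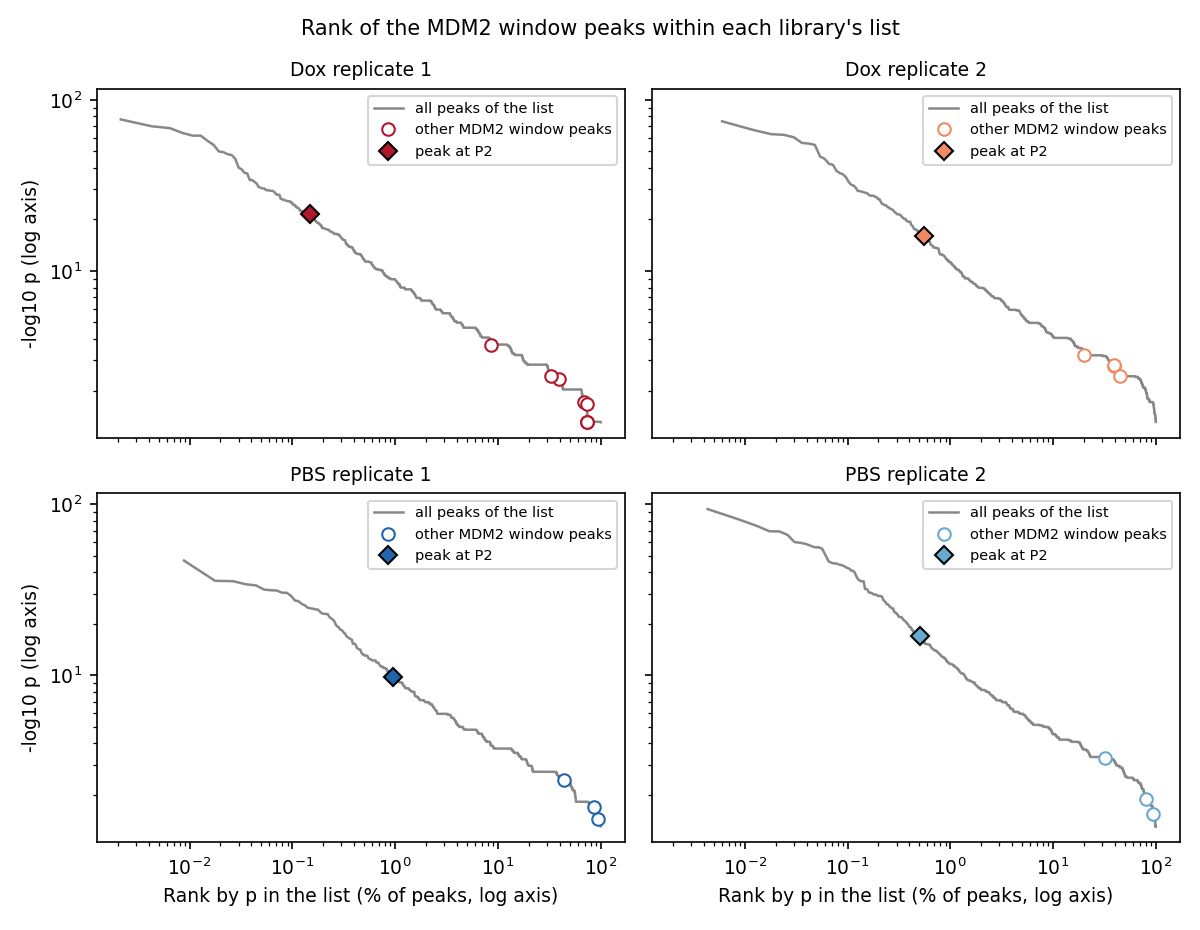
Peaks of each library ranked by p, with rank as a percentage of the list on the x axis and −log10 p on the y axis, both log axes. The line is the whole list, the diamond the peak at P2 and the open circles the other peaks of the MDM2 window. The diamonds lie between 0.148% and 0.955%, and the circles at 8.68% or lower down the lists.

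The CDKN1A locus gives a scale for the P2 peak. CDKN1A encodes p21, a cyclin-dependent kinase inhibitor that arrests the cell cycle and is a well-studied p53 target. Its leading peak, on chromosome 6 with summits from 36644184 to 36644240, was enriched 11.89-fold in Dox replicate 1, 13.32-fold in Dox replicate 2, 11.86-fold in PBS replicate 1 and 13.22-fold in PBS replicate 2. It ranked 24 and 16 by p in Dox replicates 1 and 2, and 23 and 31 in PBS replicates 1 and 2. The MDM2 P2 peak thus ranked below the CDKN1A peak in each of the 4 lists. The CDKN1A summits spanned 56 bases, against 91 bases at MDM2.

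At P1, the constitutive promoter, both PBS libraries held a separate weak peak. It was 3.03-fold in PBS replicate 2, from 69201405 to 69202128, and 2.55-fold in PBS replicate 1, from 69201784 to 69202263, with −log10 p of 3.28 and 2.44 and a −log10 q of 0.0 in both. Dox replicate 2 had no peak there. In Dox replicate 1 the P2 peak itself was 1321 bases long and reached 297 bases before the first start. It thus covered the P1 region within 1 peak, and its only listed summit lay 763 bases after that start. The P2 peaks of the other libraries were 487 bases long in Dox replicate 2, and 313 and 500 bases in PBS replicates 1 and 2. Because of the long peak of Dox replicate 1, the P1 and P2 peaks merged into 1 site of 1605 bases. When Dox replicate 1 was left out, a choice made after the data were seen, the P1 peaks became a site of both PBS libraries that was absent from Dox replicate 2. A split into P1 and P2 thus depended on 1 library.

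The remaining sites of the window were weak, with enrichments of 1.96-fold to 3.36-fold. A site from 69228236 to 69228669, which began 26265 bases after the first start, held a peak in 3 libraries. Its enrichment was 2.83-fold in Dox replicate 1, 2.98-fold in Dox replicate 2 and 2.32-fold in PBS replicate 2, with summits within 36 bases of each other. PBS replicate 1, the shortest list, had no peak there. A site from 69242958 to 69243656 also held a peak in 3 libraries, at 3.36-fold in Dox replicate 1, 3.11-fold in Dox replicate 2 and 2.18-fold in PBS replicate 1, and with summits within 191 bases. Here it was PBS replicate 2 that had none. No peak of either site reached a −log10 q above 0.09. No hg19 annotation was used, so these sites were not placed in exons or introns; in the RefSeq annotation of GRCh38, MDM2 overlaps the end of CPM, which encodes carboxypeptidase M, and its nearest protein-coding neighbour on the other side is SLC35E3.

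The other 10 sites were each found in 1 library, 6 in Dox replicate 1, 2 in Dox replicate 2, and 1 each in PBS replicates 1 and 2. Of the Dox replicate 1 peaks, 3 had a −log10 p of 1.31, which 11563 peaks of that list share and which is close to the calling limit of p under 0.05. Over the genome 72.5% of merged sites were found in exactly 1 library. That share was not split by library, and Dox replicate 1 had the longest list, with 46658 of the 97582 peaks. In the window 1 site was found in all 4 libraries, against 6.01% of all merged sites. The window held 0 sites in both Dox and neither PBS library, against 3.11% over the genome, and 0 in both PBS and neither Dox library, against 0.928%. The shares of the 13 sites were not tested against the genome.

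**Figure D3:**
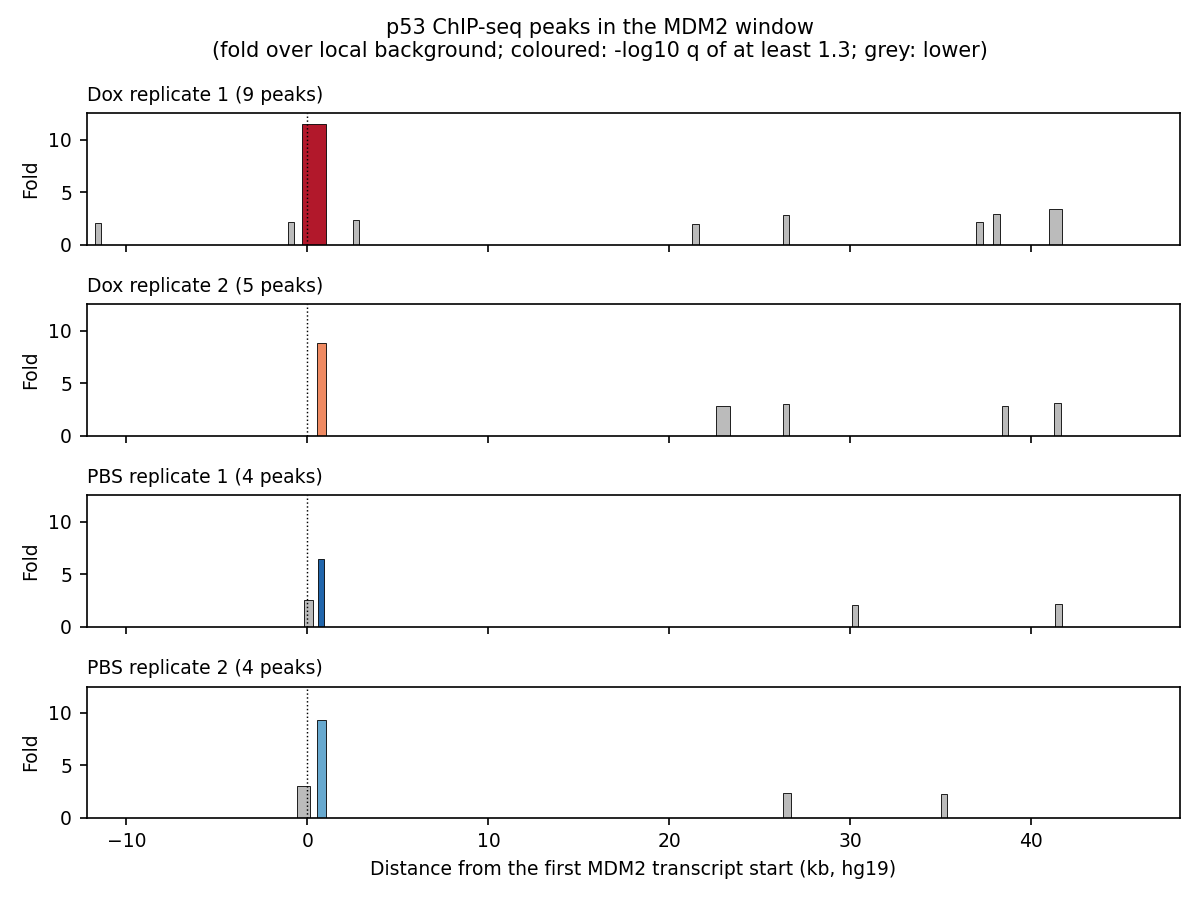
Peaks of the MDM2 window in the 4 libraries, by distance in kb from the first MDM2 start on hg19 (dotted line), with the authors' fold over local background as bar height. Coloured bars had a −log10 q of at least 1.3 and grey bars did not; short peaks are drawn wider than they are so that they can be seen. One coloured bar stands in each library, next to the start, at 11.44-fold, 8.78-fold, 6.44-fold and 9.31-fold from top to bottom.

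The peaks matched between replicates gave the same picture within each condition. The authors' tables listed 3 pairs in the window for Dox, of 8784, and 2 for PBS, of 6244. The tables score a pair by its IDR, the irreproducible discovery rate, which is low for pairs that rank high and alike in both replicates. The P2 pair had an IDR of 2.55e-06 and ranked 63 in Dox, and had an IDR of 3.02e-05 and ranked 81 in PBS. It was the only pair of the window with an IDR of at most 0.05 in either condition; 27.5% of all Dox pairs and 15.0% of all PBS pairs met that limit. The other Dox pairs lay at the sites that began at 69228236 and 69242958, with IDR of 0.057 and 0.477, and the other PBS pair was the one at P1, with an IDR of 0.456.

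Dox libraries held more peaks in the window than PBS libraries, a difference that the number of libraries could not test below p of 0.33. There were 9 and 5 peaks in Dox replicates 1 and 2, against 4 and 4 in PBS replicates 1 and 2. The mean was 7.0 ± 2.83 peaks in Dox and 4.0 ± 0.0 peaks in PBS (SD over 2 libraries each). An exact two-sided permutation test gave p = 0.333, the smallest this design allows. How many other stretches of 60000 bases had both Dox libraries above both PBS libraries was not counted. The order of the libraries therefore cannot be called particular to this locus. The difference of the means was 1 peak without Dox replicate 1 and 5 peaks without Dox replicate 2. Between the replicate 1 libraries (passage 3) Dox had 5 more peaks, and between the replicate 2 libraries (passage 5) it had 1 more. Peaks covered 3660 and 2125 bases in Dox replicates 1 and 2, against 1229 and 1837 bases in PBS replicates 1 and 2. The mean was 2892.5 ± 1085 bases in Dox and 1533.0 ± 430 bases in PBS (SD over 2 libraries each), again with an exact permutation p of 0.333 and with a difference of 2431 bases within number 1 and of 288 within number 2. Mean peak length in the window was 407 and 425 bases in Dox replicates 1 and 2, and 307 and 459 bases in PBS replicates 1 and 2.

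The excess of peaks lay in the weak sites, and it was 0.5 peaks between the means once the lists were cut to equal length. The whole lists held 46658 and 16642 peaks in Dox replicates 1 and 2, and 11304 and 22978 in PBS replicates 1 and 2. With the 11304 peaks of smallest p from each list, the window held 2 and 5 peaks in Dox replicates 1 and 2, against 4 and 2 in PBS replicates 1 and 2, and the groups overlapped. With −log10 q of at least 1.3 each of the 4 libraries held 1 peak, that at P2. Per 1000 peaks of the list, the window held 0.193 and 0.3 peaks in Dox replicates 1 and 2, against 0.354 and 0.174 in PBS replicates 1 and 2. Within 5000 bases of the first start there were 3 and 1 peaks in Dox replicates 1 and 2, against 2 and 2 in PBS replicates 1 and 2. There the peaks covered 1848 and 487 bases in Dox replicates 1 and 2, against 793 and 1224 bases in PBS replicates 1 and 2, so the difference was 1055 bases between the replicate 1 libraries and -737 bases between the replicate 2 libraries. The P2 peak alone covered 1321 and 487 bases in Dox replicates 1 and 2, against 313 and 500 bases in PBS replicates 1 and 2, a difference of 1008 bases for replicate 1 and of -13 bases for replicate 2.

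**Figure D4:**
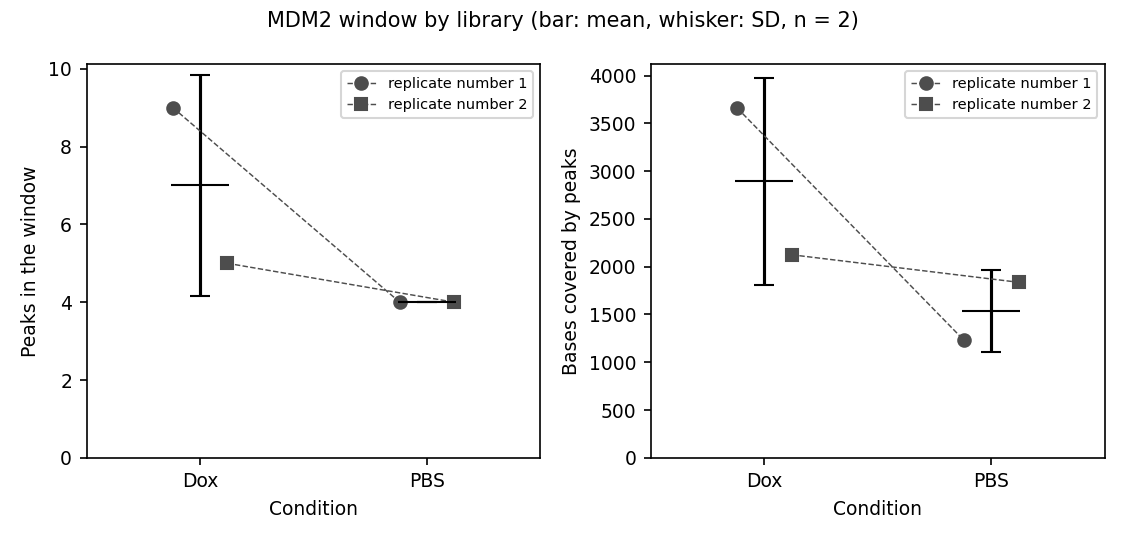
Number of peaks (left) and bases covered by peaks (right) in the MDM2 window for each library, with Dox left of PBS. Points are libraries, dashed lines join libraries of the same replicate number, and bars and whiskers are the mean and SD (n = 2). Both Dox libraries lie above both PBS libraries in each panel, with the larger gap in replicate number 1. How many other stretches of the genome show this order was not counted.

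The window was denser in peaks than most stretches of its size. Among 60000-base stretches with at least 1 peak in the same list, 5.22% and 6.13% held as many peaks or more in Dox replicates 1 and 2, and 7.16% and 11.1% in PBS replicates 1 and 2. The median such stretch held 2.0 peaks in Dox replicate 1 and 1.0 in each of the other lists. The stretch just before the window held 2 and 1 peaks in Dox replicates 1 and 2 and 1 peak in each PBS library, and the stretch just after it held 0 in all 4.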

How the data were processed

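Binding of p53 was measured by ChIP-seq in 4 libraries. BWA, MACS2 and build hg19 were used, per the submitters' processing notes, with versions, filters and depth not given in the sources used here. A separate list of MACS2 peaks for each library was deposited, with peak names that state a limit of p under 0.05. Each deposited peak has a fold ratio over local background, and its p-value and q-value as −log10. For each condition the authors deposited the pairs of peaks matched between replicates, with the −log10 p of both peaks and the IDR, a q-value. Printed starts count from 1, and summits are as deposited; 94 lay on the peak's start and 76 on its end, so positions are uncertain by 1 base.

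Peaks that shared at least 1 base were merged into sites, a step checked on simulated lists. Peak numbers and covered bases per library were tested by exact permutation, two-sided. Alternatives were −log10 q of at least 1.3, −log10 p of at least 5, equal list lengths, other windows and overlaps, single libraries left out, and the replicate number as a block. Replicate numbers share a passage; with 2 pairs no further check of pairing was possible. Every site in the window is described. The members, lists and tests were chosen with earlier results of these data known. The consensus search used RefSeq promoter windows of GRCh38. Peaks near other genes of the p53 loop were not analysed here, because no hg19 gene starts were at hand. The tools were matplotlib 3.10.9, scipy 1.17.1, pandas 2.3.3 and numpy 2.4.6 under Python 3.11.15.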

Additional observations from a re-analysis of the deposited data

Results flagged for a closer look

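The number of peaks in the MDM2 window per 1000 peaks of the whole list was lower in Dox than in PBS among the replicate 1 libraries and higher among the replicate 2 libraries. Dox minus PBS was -0.161 for replicate 1 (passage 3), 0.1264 for replicate 2 (passage 5) and -0.0173 for the means (two-sided exact permutation p = 1.0, n = 2 each). The difference between the replicate numbers was not tested, since each rests on 1 library per condition. The lists themselves differed by 35354 peaks within number 1 and by -6336 within number 2, and their part in the result was not tested.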

How the results depend on the processing

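The site at P2 led the window in 4 of 4 libraries by p and by fold, and it was in every library used under each threshold, overlap and window tried. The difference in peak number, 3 peaks, became 0 at −log10 q of at least 1.3, at −log10 p of at least 5 and within 5000 bases of the first start, and 0.5 at equal list length; leaving out 1 library gave 1 (without Dox replicate 1) to 5 (without Dox replicate 2). The difference of the mean covered bases was 497.5 at both thresholds, 846 at equal length, 159 within 5000 bases, and 592 (without Dox replicate 1) to 2127 (without Dox replicate 2) with 1 library left out. Its sign differed between the replicate numbers at both thresholds and within 5000 bases: the replicate 1 pair gave 1008 bases at both thresholds and 1055 within 5000 bases, and the replicate 2 pair -13 and -737. The difference in peak number also changed sign between them, with -2 and 3 at equal length and 1 and -1 within 5000 bases for replicates 1 and 2. With the replicate number as a block both differences of the means stayed as they were (3 peaks and 1359.5 bases), with an exact sign-flip p of 0.5, the smallest it allows. Sites in exactly 1 library fell to 0 at both thresholds, to 4 at equal length and to 2 within 5000 bases, against 10. Each of these settings leaves fewer peaks by construction. Pairs fell to 1 in Dox and 1 in PBS at an IDR of at most 0.05. Leaving out single libraries, added after the data were seen, gave 1 to 2 sites in every library used, 1 to 6 sites in the remaining Dox and no remaining PBS library (6 without Dox replicate 2, 2 without Dox replicate 1, 1 without PBS replicate 1 and 1 without PBS replicate 2) and 0 to 1 in the reverse (0 without Dox replicate 2 alone), against 0 and 0 with all 4. These counts were out of 8 sites without Dox replicate 1, 11 without Dox replicate 2, 12 without PBS replicate 1 and 12 without PBS replicate 2. Shares over the genome were not computed with a library left out, so the counts cannot be set against a background. The count of other p53 loop genes with peaks was not run. Read depth is unknown, so a weak peak missing from a list does not show that p53 was absent there.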
